A study of Mus musculus with 29 samples.

Results

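The cytosolic heat shock chaperones are the genes Hspa8, Hspa1a, Hspa1b, Hsp90aa1, Hsp90ab1, Hsph1, Dnajb1, Ahsa1, Hspb8 and Bag3. They were chosen by symbol as listed targets of the heat shock factor HSF1, and all 10 were found among the 24346 genes of the deposited expression table. Messenger RNA was sequenced from liver and hippocampus of male C57BL/6J mice, all of which had first eaten a high-fat diet for 10 weeks. For another 4 weeks the mice either stayed on that diet (HFD), stayed on it and fasted intermittently (HFD-IF), changed to a control chow (CC), or changed to the chow and fasted intermittently (CC-IF). All groups had therefore been on the high-fat diet before, and no group of mice was fed chow throughout. Each regimen gave 4 libraries per tissue, except for 2 from liver of HFD-IF mice and 3 from hippocampus of CC-IF mice. Whether tissue was taken on a fasting or a feeding day is not given in the sources used here. Levels are FPKM, fragments per kilobase of transcript scaled to the mapped fragments of the library, and libraries are named by the index in their column.

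Chaperones of the HSP70 family bind exposed hydrophobic stretches of unfolded proteins in cycles of ATP binding and hydrolysis; J-domain proteins deliver the client, and nucleotide exchange factors release it. HSP90 acts later, on kinases, steroid hormone receptors and other nearly folded clients. In unstressed cells HSF1 is held inactive with chaperones. When unfolded protein accumulates it forms trimers and binds heat shock elements, which are inverted repeats of the unit GAA, upstream of chaperone genes. In liver and brain the system answers heat, fever, ischaemia and oxidative damage, while Hspa8 and Hsp90ab1 serve as the constitutive members.

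The upstream regions of the stress-inducible HSP70 genes are shown because these genes gave the only changes past the threshold within a tissue. The regions overlap no annotated exon. Both genes lie on chromosome 17 of GRCm38, Hspa1b at chr17:34956436-34959238 and Hspa1a at chr17:34969190-34972156, each on the minus strand. The 250 bases before each start were taken from RefSeq on GRCm38.p6, 5′ to 3′, from chr17:34959239-34959488 for Hspa1b and chr17:34972157-34972406 for Hspa1a. The capitals mark 2 inverted units, GAANNTTC, which begin 104 bases before either start.
Hspa1a: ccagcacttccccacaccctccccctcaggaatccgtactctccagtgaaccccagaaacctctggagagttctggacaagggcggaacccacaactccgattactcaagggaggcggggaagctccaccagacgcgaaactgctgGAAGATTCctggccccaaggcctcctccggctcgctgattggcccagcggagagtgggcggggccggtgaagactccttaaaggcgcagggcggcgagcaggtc
Hspa1b: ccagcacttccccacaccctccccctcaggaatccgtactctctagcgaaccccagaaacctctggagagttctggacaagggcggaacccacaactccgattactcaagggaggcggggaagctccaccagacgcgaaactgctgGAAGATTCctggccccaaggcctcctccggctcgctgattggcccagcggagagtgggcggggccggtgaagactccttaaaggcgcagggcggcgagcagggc
Counted from the 5′ end of these runs, with the Hspa1a base first and the Hspa1b base last, the sequences differ at 3 of 250 positions, C44T, T47C and T249G.

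Of the 10 genes, 7 had a window of 250 bases before and 50 bases after a start in the RefSeq table, and Hspa8, Hsp90aa1 and Hsp90ab1 are named only. Both strands were searched for 2 alternating units (GAANNTTC or TTCNNGAA) and for 3 (GAANNTTCNNGAA or TTCNNGAANNTTC), a match to 3 units also counting as a match to 2. The shorter form was found in 15.1% of all 32851 windows and in 17% of the 27025 genes with a window, and 5 of the 7 chaperone genes held it, namely Hspa1a, Hspa1b, Hsph1, Hspb8 and Bag3. The longer form was found in 0.662% of genes, and of the chaperones in Hsph1. A match is a description of the letters and not evidence of binding. The stretches below show, in capitals, 1 match of each of the other 3 genes, for Hsph1 at chr5:149636287-149636316 (minus strand), for Hspb8 at chr5:116422844-116422873 (minus strand) and for Bag3 at chr7:128523603-128523632 (plus strand). These matches begin after the start of their window, at position 37 for Hsph1, 3 for Hspb8 and 43 for Bag3, and the stretches overlap an exon of the gene. A second match in Hsph1, of 2 units at position -33 from the same start, is not shown, and the bases around it also overlap an exon of Hsph1. Hsph1 had another start in the RefSeq table, from which these matches begin at 16 and -54.
Hsph1: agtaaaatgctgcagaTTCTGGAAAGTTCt
Hspb8: agaagccaggaGAAGTTTCtaggctcgcga
Bag3: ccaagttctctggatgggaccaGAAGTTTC

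The libraries matched their labelled tissue. Apoa1, the main protein of high-density lipoprotein and a product of hepatocytes, was between 5464 and 9184 FPKM in the livers and at most 0.504 in the hippocampi. Snap25, a neuronal synaptic protein, was between 523 and 724 FPKM in the hippocampi and was listed at 0 in all 14 livers. Syt1, a neuronal gene with no value of 0, was between 179 and 243 FPKM in the hippocampi and between 1.27 and 3.38 in the livers. Ttr, also listed as a hepatocyte marker, reached 1744 FPKM in a hippocampus, below its lowest liver value of 2955. Alb was listed at 0 in 8 of the 14 livers although other hepatocyte genes were high there, so an exact 0 in this table can be a failed estimate; none of the chaperone values was 0. Low values spaced like whole fragments gave an approximate depth of 9.9 to 16.7 M fragments in liver and 11.9 to 38.8 M in hippocampus, which put Hspa1a, the gene with the lowest level in liver, at about 25 to 1344 fragments per liver library. CC-IF liver library 2 carried all 4 skeletal muscle markers, Acta1, Myh1, Ckm and Mb, at a summed 31.8 FPKM against at most 0.128 in the 13 other livers. HFD-IF liver library 1 carried the stellate cell and fibroblast markers at a summed 441 FPKM against 134 to 228 in the others, and the Kupffer cell markers at 307 against 66.0 to 186.

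In liver, fasting on chow went with a rise of Hspa1b, a stress-inducible HSP70 gene, and the 9 other chaperones did not pass the test. Hspa1b was at 50.8, 26.7, 22.3 and 20.7 FPKM in CC libraries 0 to 3 and at 43.3, 104.5, 263.4 and 129.7 FPKM in CC-IF libraries 0 to 3. All CC-IF libraries but 1 lay above every CC library; CC-IF library 0 lay between CC libraries 0 and 1, so the groups overlapped. The mean was 4.49 times as high, and Hspa1b rose by 1.95 ± 0.58 (SE) on the log2(FPKM + 1) scale (adjusted p = 0.0265). Hspa1b was the only 1 of the 10 genes to pass in this comparison, where 24% of 11497 genes passed in either direction and 28.8% had groups that did not overlap. The share of chaperone genes past the threshold was thus below that of all genes. The adjusted p rose to between 0.0518 and 0.0737 when CC library 1, 2 or 3 or CC-IF library 1, 2 or 3 was left out, and to 0.0506 with no filter on low values.

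Hspa1a, the neighbouring gene for the same protein, was at 8.96, 3.65, 2.98 and 2.23 FPKM in the CC livers and at 4.84, 18.3, 44.5 and 11.9 FPKM in CC-IF libraries 0, 1, 2 and 3. Its change of 1.70 ± 0.64 had an adjusted p of 0.0733, which did not pass. CC-IF library 2 was the highest for this gene and for Hspa1b, and it was the library with the muscle markers; their part in the result was not tested. Without that library Hspa1b still differed by 1.54 and Hspa1a by 1.19, with adjusted p of 0.0737 and 0.192.

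CC-IF livers were also compared with HFD livers, which asks what the diet switch and fasting gave together. Hspa1b was at 10.4, 32.4, 27.1 and 17.1 FPKM in HFD libraries 0 to 3, all below the lowest CC-IF library at 43.3. It rose by 2.43 ± 0.58 (adjusted p = 0.00958), and the call held in every fit that left out 1 library. Hspa1a was at 0.928, 3.601, 2.79 and 2.42 FPKM in HFD, again all below the CC-IF libraries, and rose by 2.29 ± 0.64 (adjusted p = 0.0221). The adjusted p of Hspa1a was 0.0639 without HFD library 0, 0.0501 without CC-IF library 1 and 0.0642 without CC-IF library 2. These 2 of 10 genes passed and had groups that did not overlap, where 23.7% of all genes passed and 27.8% had groups that did not overlap, so the share was near or below the background. This comparison shares its CC-IF libraries with that against CC.

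The diet switch alone and fasting on high-fat diet moved none of the 10 genes past the threshold in liver. For CC against HFD, 2.3% of all genes passed; Hspa1a differed by 0.59 ± 0.64, Hspa1b by 0.48 ± 0.58 and Hspb8 by -0.38 ± 0.28, and no chaperone had an unadjusted p under 0.05, against 18.7% of all genes. For HFD-IF against HFD, 1.32% of all genes passed and again no chaperone had an unadjusted p under 0.05, against 17.8% of all genes. HFD-IF had 2 liver libraries, and they disagreed: Hspa1b was at 17.4 FPKM in library 0 and 90.8 in library 1, and Hspa1a at 0.790 and 10.9. Their changes of 0.97 ± 0.70 and 0.50 ± 0.79 turned to -0.19 and -0.87 without library 1, the library with the high fibroblast and Kupffer cell markers, whose part in the result was not tested.

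Averaged over both diets, fasting raised Hspa1b in liver by 1.46 ± 0.45 (adjusted p = 0.0389), where 19.8% of all genes passed; the change was 0.88 (adjusted p = 0.205) without HFD-IF library 1, and the call was lost in 9 of the 14 fits that left out 1 library. Hspa1a differed by 1.10 ± 0.51 (adjusted p = 0.147). The fasting change on chow minus that on high-fat diet was 0.98 ± 0.91 for Hspa1b and 1.20 ± 1.02 for Hspa1a, and none of the 10 genes passed this interaction, which 1.11% of all genes did. None had an unadjusted p under 0.05 either, against 18.3% of all genes. A difference of the fasting response between the diets was therefore not shown. Between CC-IF and HFD-IF none of the 10 genes passed, as did 0.591% of all genes, and 1 of 10, Hspa1a, had an unadjusted p under 0.05, against 18.2% of all genes (1.80 ± 0.79, adjusted p = 0.256).

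**Figure D1:**
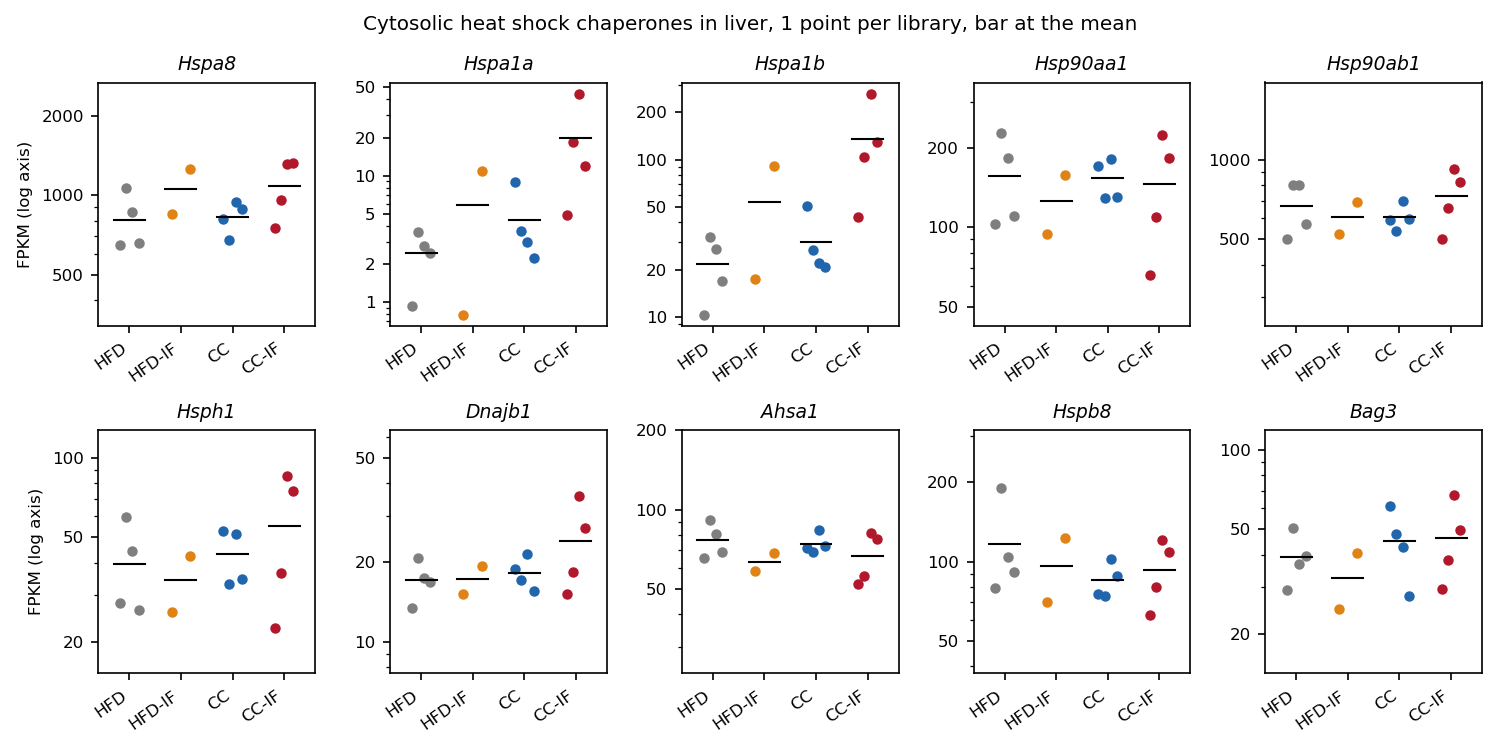
FPKM of the 10 chaperone genes in 14 liver libraries by regimen, 1 point per library and a bar at the group mean, on log axes that differ between genes. Hspa1b lies at 43.3 to 263.4 FPKM in CC-IF and at 10.4 to 32.4 in HFD, while the CC-IF and CC points overlap for all 10 genes.

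Hspa8, the constitutive HSP70, had the highest level of the set in liver. It was at 816, 676, 946 and 883 FPKM in CC libraries 0 to 3 and at 749, 956.5, 1317 and 1328 FPKM in CC-IF libraries 0 to 3. CC-IF libraries 1, 2 and 3 stood above all CC livers and library 0 below 3 of the 4, and the difference of 0.36 ± 0.22 did not pass (adjusted p = 0.257). In HFD it was at 644.5, 1062, 863 and 656 FPKM and in HFD-IF at 852 and 1257, a difference of 0.39 ± 0.27 (adjusted p = 0.464). Averaged over both diets the fasting difference was 0.38 ± 0.17 (adjusted p = 0.143).

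The genes whose products assist HSP70 lay at lower levels and differed less than their spread. Dnajb1, a J-domain protein that stimulates the HSP70 ATPase, was between 15.6 and 21.5 FPKM in the CC livers and between 15.2 and 35.8 in CC-IF, a difference of 0.31 ± 0.22 (adjusted p = 0.335). Hsph1, an HSP110 protein that acts as nucleotide exchange factor, was at 52.8, 33.1, 51.5 and 34.6 FPKM in CC libraries 0 to 3 and at 22.6, 36.4, 85.5 and 74.8 in CC-IF libraries 0 to 3. Its CC-IF values thus lay on both sides of the CC values, and the difference was 0.19 ± 0.39 (adjusted p = 0.769).

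The HSP90 genes and their activator did not pass either. Hsp90aa1, the inducible cytosolic HSP90, was at 172, 130, 182.5 and 130 FPKM in CC and at 65.8, 109, 224 and 184 FPKM in CC-IF, and differed by -0.21 ± 0.36 (adjusted p = 0.724). Hsp90ab1, the constitutive form, lay between 536 and 699.8 FPKM in CC and between 500.4 and 923 in CC-IF, a difference of 0.23 ± 0.20 (adjusted p = 0.445). Ahsa1, which stimulates the HSP90 ATPase, lay between 68.7 and 84.0 FPKM in CC and between 52.4 and 81.3 in CC-IF, a difference of -0.17 ± 0.15 (adjusted p = 0.439).

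Hspb8, a small heat shock protein, and Bag3, which links HSP70 and HSPB8 to autophagy of damaged protein, differed least between CC-IF and CC. Hspb8 lay between 74.0 and 102.5 FPKM in CC and between 62.5 and 121 in CC-IF, a difference of 0.09 ± 0.28 (adjusted p = 0.845). Its highest liver value, 190.2 FPKM, was in HFD library 1. Bag3 lay between 27.8 and 61.4 FPKM in CC and between 29.6 and 67.6 in CC-IF, a difference of 0.03 ± 0.28 (adjusted p = 0.962). Over the 10 genes the median log2 change of CC-IF against CC was 0.21 with 8 above 0, beside a median of 0.02 over all genes tested. It was 0.029 without CC-IF library 2, 0.082 without CC-IF library 3, 0.13 without CC library 1 and 0.45 without CC-IF library 0, and 0.12 with quantile normalization.

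The chaperone genes were often high or low together in the same library. CC-IF library 2 had the highest value of 14 livers for 6 of the 10 genes and was among the top 3 for all 10. CC-IF library 3 was among the top 3 for 7 genes and HFD library 1 for 6. At the other end, HFD-IF library 0 was among the lowest 3 for 9 genes, HFD library 0 for 7 and CC-IF library 0 for 6. The CC-IF group thus held libraries near both ends of the order. Within it the highest library was 9.21 times the lowest for Hspa1a, 6.09 times for Hspa1b, 3.78 times for Hsph1 and 3.40 times for Hsp90aa1; within CC these ratios were 4.02, 2.46, 1.60 and 1.41. CC-IF library 0 showed the split most clearly: it was the lowest of the livers for 4 genes, with Hsp90aa1 at 65.8 FPKM, while its Hspa1b of 43.3 FPKM exceeded 3 of the 4 CC livers.

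**Figure D2:**
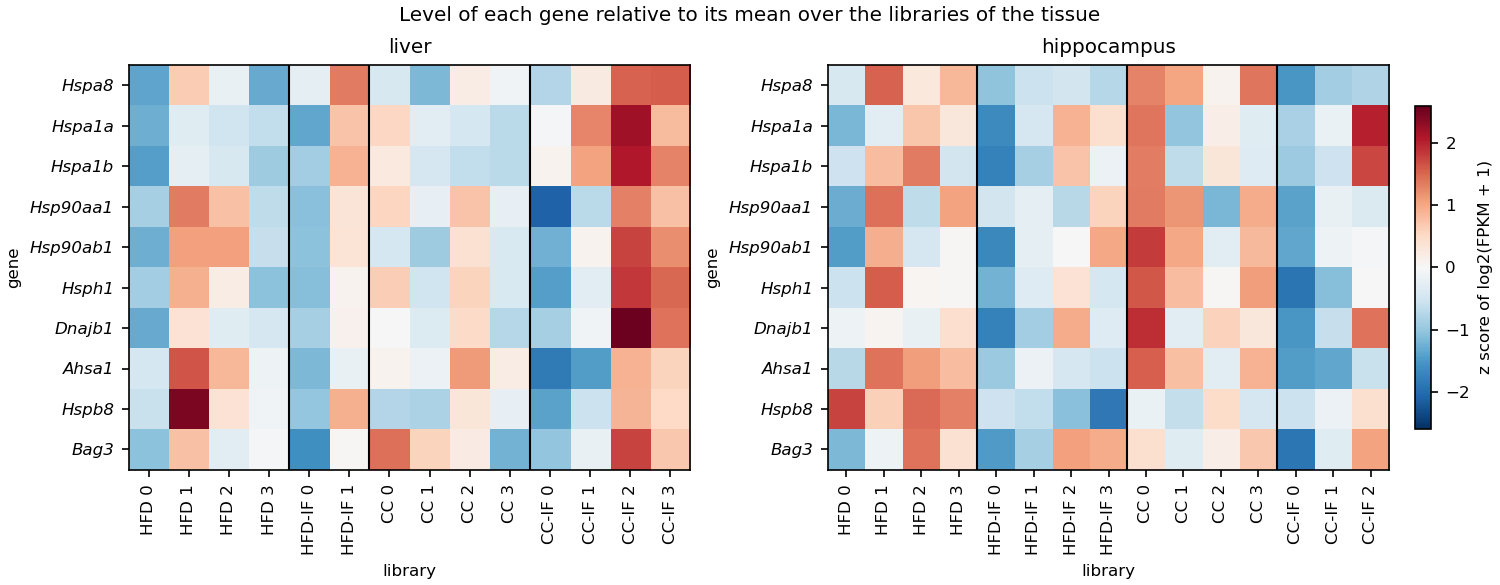
Level of each gene in each library as a z score of log2(FPKM + 1) over the libraries of the tissue, with black lines between regimens. In liver CC-IF library 2 is in the top 3 for all 10 genes and CC-IF library 0 in the bottom 3 for 6, and in hippocampus CC library 0 is in the top 3 for 8 genes.

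In hippocampus none of the 10 genes passed in any of the 7 comparisons, a tissue in which limma called 0.0622% of all 12857 genes in the average over both diets, 0.00778% in CC-IF against CC and none in the 5 other comparisons. Unadjusted p-values under 0.05 were found for 3 chaperones in HFD-IF against HFD (7.6% of all genes) and 3 in CC-IF against CC (6.39%). The number was 1 in CC against HFD (3.56%), 4 in CC-IF against HFD (8.8%) and 1 in CC-IF against HFD-IF (2.98%). It was 1 in the interaction (3.39%) and 4 in the average over both diets (10.2%). The values below are therefore descriptions that did not pass adjustment. Fewer cells of a type and less RNA per cell cannot be told apart in these bulk samples.

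Hspa8, which also supports the uncoating of synaptic vesicles in neurons, was lower in the fasted groups. It was at 592, 572, 508 and 599 FPKM in CC libraries 0 to 3 and at 415, 448 and 455 FPKM in the CC-IF libraries. All 3 fasted libraries lay below all 4 fed ones, with a difference of -0.37 ± 0.09 (adjusted p = 0.34). On high-fat diet it was at 477, 610.5, 519.8 and 561 FPKM in HFD and at 440.1, 468, 473 and 458 FPKM in HFD-IF. These groups did not overlap either, with a difference of -0.23 ± 0.08 (adjusted p = 0.579). Averaged over both diets the difference was -0.30 ± 0.06 (adjusted p = 0.0812), and with each library centred on its median it was -0.31 with an adjusted p of 0.0283, while with quantile normalization it was -0.17 with an adjusted p of 0.448. Quantile normalization also moved the difference of CC-IF from CC to -0.17.

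Hsph1 and Ahsa1 also separated on chow. Hsph1 was at 75.3, 66.2, 58.5 and 69.2 FPKM in CC and at 42.9, 48.6 and 58.3 FPKM in CC-IF, a difference of -0.43 ± 0.13 (adjusted p = 0.471), with only 58.5 and 58.3 FPKM separating the groups. Ahsa1 was at 48.2, 44.7, 40.2 and 45.3 FPKM in CC and at 35.9, 36.3 and 39.1 FPKM in CC-IF, a difference of -0.26 ± 0.08 (adjusted p = 0.471). For CC-IF against CC, 3 of the 10 genes had groups that did not overlap, where 8.98% of all genes did, and for HFD-IF against HFD it was 2 of 10 where 3.28% of all genes did. On high-fat diet the fasting difference was -0.15 ± 0.12 for Hsph1 and -0.16 ± 0.07 for Ahsa1. Signs across the set are not separate observations. HFD-IF library 0 and CC-IF library 0 were each among the lowest 3 hippocampi for 8 of the 10 genes. All 10 genes were below 0 in HFD-IF against HFD, with Hsp90ab1 at -2.6e-05, and 8 of 10 in CC-IF against CC; the medians were -0.12 and -0.13, beside 0.05 and -0.02 over all genes tested. Leaving out 1 library moved them between -0.066 (without HFD-IF library 0; -0.073 without HFD library 1) and -0.20 (without HFD library 0), and between -0.051 (without CC-IF library 0) and -0.27 (without CC-IF library 2).

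Hspb8 had the smallest unadjusted p of the set in this tissue. It was at 6.80, 5.30, 6.38 and 6.17 FPKM in HFD libraries 0 to 3 and at 4.05, 3.95, 3.55 and 2.93 FPKM in HFD-IF, a difference of -0.64 ± 0.10 (adjusted p = 0.137). In the CC libraries it was at 4.41, 3.97, 5.13 and 4.14 FPKM, all below HFD, with a difference of -0.40 ± 0.10 (adjusted p = 0.793). In CC-IF it was at 4.02, 4.43 and 5.05 FPKM, again below all HFD libraries but not apart from CC, with differences of -0.38 ± 0.11 from HFD (adjusted p = 0.311) and 0.02 ± 0.11 from CC. HFD was thus the 1 regimen that stood apart, and groups that did not overlap were found for 1 of 10 genes in CC against HFD (2.47% of all genes) and for 2 of 10, Hspb8 and Hspa8, in CC-IF against HFD (9.21%). The interaction was 0.66 ± 0.15 (adjusted p = 0.982).

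The markers of the choroid plexus, an epithelium next to the hippocampus that dissection can carry over, were set beside Hspb8. Their summed level was 51.4, 10.3, 45.9 and 39.8 FPKM in HFD libraries 0 to 3, between 6.23 and 15.7 FPKM in HFD-IF, 56.5 FPKM in CC library 2 against 7.70 to 11.1 in the other CC libraries, and 33.8 FPKM in CC-IF library 2 against 7.46 and 8.09. In 4 of 4 regimens the library with the highest sum also had the highest Hspb8, an observation chosen after the values were seen. Across regimens the 2 orders differed. HFD library 1, with a low sum of 10.3 FPKM, had 5.30 FPKM of Hspb8, above all HFD-IF libraries. CC library 2, with the highest sum of all hippocampi, had 5.13 FPKM of Hspb8, below HFD library 1. The 4 choroid plexus markers tested were all lower in HFD-IF than in HFD, with a median log2 difference of -1.41, as were all 4 markers of the meninges, with a median of -0.92, and none passed. The part of the choroid plexus in the Hspb8 values was not tested.

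The stress-inducible genes differed little between CC-IF and CC in hippocampus. Hspa1a was at 10.1, 4.45, 6.73 and 5.72 FPKM in CC and at 4.75, 6.03 and 12.3 FPKM in CC-IF, a difference of 0.12 ± 0.31 (adjusted p = 0.997). Hspa1b was at 12.8, 5.71, 8.60 and 6.56 FPKM in CC and at 5.06, 6.03 and 14.99 FPKM in CC-IF, a difference of -0.04 ± 0.37 (adjusted p = 0.998). In both genes 1 library of CC and 1 of CC-IF stood above the rest. On high-fat diet the mean with fasting was 0.733 times that without for Hspa1b, and 0.992 times for Hspa1a. Hspa1b lay between 6.02 and 13.0 FPKM in HFD and between 3.52 and 10.2 in HFD-IF, so the groups overlapped. For Hsp90aa1 the fasting difference on chow was -0.18 ± 0.11, for Hsp90ab1 -0.09 ± 0.07, for Dnajb1 -0.14 ± 0.12 and for Bag3 -0.12 ± 0.15. Hsp90ab1 kept within 432.5 to 512 FPKM over all 15 hippocampi. CC library 0 was among the top 3 hippocampi for 8 of the 10 genes, and HFD-IF library 0 and CC-IF library 0 were each among the lowest 3 for 8.

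**Figure D3:**
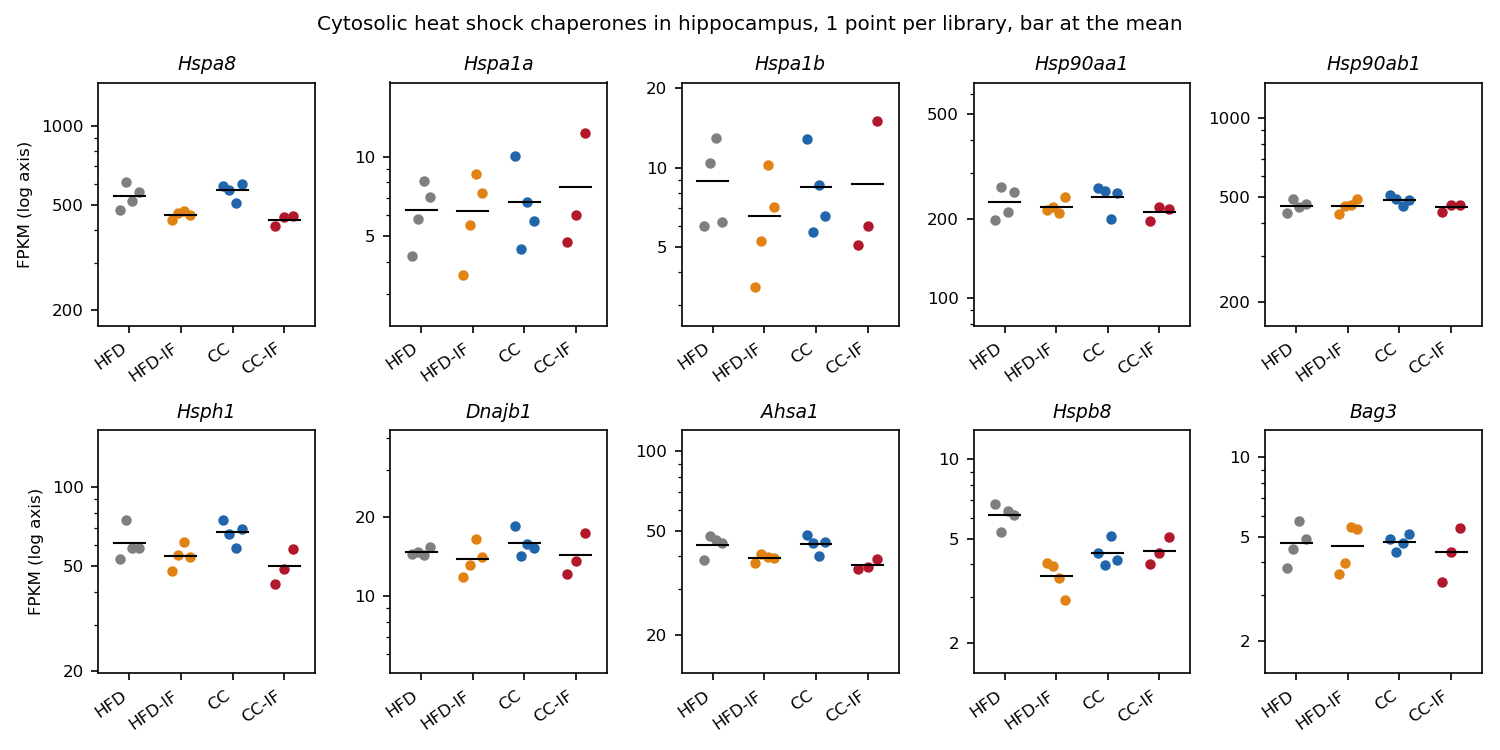
FPKM of the 10 chaperone genes in 15 hippocampal libraries by regimen, 1 point per library and a bar at the group mean, on log axes that differ between genes. Hspa8 lies at 415 to 455 FPKM in CC-IF and 508 to 599 in CC, and Hspb8 at 5.30 to 6.80 FPKM in HFD and 2.93 to 4.05 in HFD-IF.

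The response of Hspa8 to fasting on chow differed between the tissues. The change in liver minus the change in hippocampus was 0.73 ± 0.24 (adjusted p = 0.0471), with 0.36 in liver and -0.37 in hippocampus, neither past the threshold on its own. Hspa8 was the 1 of 10 genes to pass, where 13.8% of the 9939 genes kept in both tissues did. The adjusted p was 0.0521 with median centring and 0.134 with quantile normalization, and the call held in 12 of 29 fits that left out 1 library (adjusted p between 0.00984 and 0.108). For Hspa1b the difference between tissues was 1.99 ± 0.72 (adjusted p = 0.0658) and for Hspa1a 1.58 ± 0.75 (adjusted p = 0.179). For HFD-IF against HFD none of the 10 genes passed the test between tissues, as did 1.63% of all genes; 1 of 10, Hspa8, had an unadjusted p under 0.05, against 15.3% of all genes, with a difference of 0.62 ± 0.26 (adjusted p = 0.244). For CC against HFD none passed, as did 1.39% of all genes, and none had an unadjusted p under 0.05, against 13.8% of all genes.

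**Figure D4:**
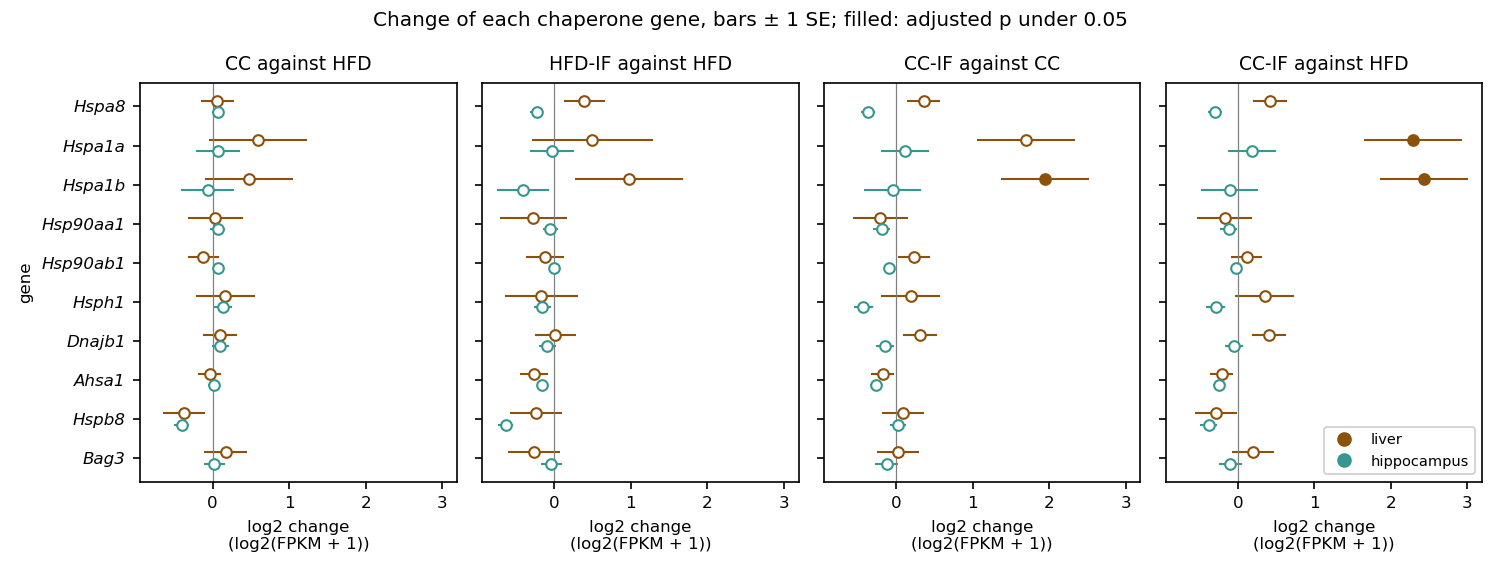
Log2 change on the log2(FPKM + 1) scale, with bars of 1 SE, for each chaperone gene in liver and hippocampus in 4 comparisons; filled points have an adjusted p under 0.05. The filled points are Hspa1b at 1.95 in CC-IF against CC, and Hspa1a at 2.29 and Hspa1b at 2.43 in CC-IF against HFD, all in liver.

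The baseline levels on chow differed most for the autophagy-linked chaperones. Hspb8 was at 74.0 to 102.5 FPKM in the CC livers against 3.97 to 5.13 in the CC hippocampi, a log2 difference of 3.98 ± 0.21 (adjusted p = 1.61e-15). Bag3 was at 27.8 to 61.4 FPKM against 4.36 to 5.13, a difference of 2.94 ± 0.22 (adjusted p = 3.51e-12). Hspa1b was also higher in liver, by 1.69 ± 0.49 (adjusted p = 0.00283). Hspa1a, which shares reads with it, differed by -0.60 and did not pass. Summed into 1 value per library, the pair was higher in liver by 1.09 (adjusted p = 0.0461). Hsp90aa1 and Hsph1 were lower in liver, by -0.67 ± 0.27 (adjusted p = 0.0252) and -0.66 ± 0.29 (adjusted p = 0.0404). Neither call held without CC liver library 1 or 3 or without CC hippocampus library 0 or 1, where the adjusted p lay between 0.0514 and 0.113, and that of Hsph1 was 0.0688 without CC hippocampus library 3. With quantile normalization the differences were -1.65 for Hsp90aa1 and -1.27 for Hsph1. Of the 10 genes 7 passed, where 80.2% of all genes did. Ahsa1 differed by 0.72 ± 0.12 and Hspa8 by 0.54 ± 0.17 as deposited, but with quantile normalization Ahsa1 was at 0.05 (adjusted p = 0.634) and Hspa8 at -0.76 (adjusted p = 0.000103). Hsp90ab1, at 0.30 ± 0.15 as deposited, was at -0.98 (adjusted p = 3.75e-06) with that scaling. No direction is therefore given for Hsp90ab1 or Hspa8, although Hspa8 passed as deposited.

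The order of levels within a tissue was similar at the top. On chow Hspa8 was the highest in liver at 830.3 ± 115.6 (SD, n = 4) FPKM, above Hsp90ab1 at 605 ± 68.7, and in hippocampus they were at 568 ± 41.5 and 489 ± 20.5. Hsp90aa1 followed at 154 ± 27.6 in liver and 243 ± 28.4 in hippocampus. Below them stood Hspb8 and Ahsa1 in liver at 85.0 ± 13.4 and 74.1 ± 6.77 FPKM, which did not differ beyond their spread, and Hsph1 and Ahsa1 in hippocampus at 67.3 ± 6.95 and 44.6 ± 3.31. Hspa1a was the lowest in liver at 4.46 ± 3.06 FPKM, and in hippocampus Hspb8 and Bag3, at 4.41 ± 0.51 and 4.78 ± 0.33, were the lowest and did not differ beyond their spread.

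The values of Hspa1a and Hspa1b carry a limit from their shared sequence. Of all stretches of 125 bases, the read length, in the longest Hspa1a transcript, 42.2% also occur in Hspa1b, and 44.8% of those of Hspa1b occur in Hspa1a. Gm20481 overlaps Hspa1a or Hspa1b, and some stretches of each also occur in Gm20481, with both strands searched. The ratio of Hspa1b to Hspa1a was 5.67 to 22.0 in the livers and 0.88 to 1.79 in the hippocampi, with no overlap between tissues, and how the reads common to both genes were divided is not given in the sources used here. Summed into 1 value per library the pair rose by 1.95 in CC-IF against CC (adjusted p = 0.0305) and by 2.47 in CC-IF against HFD (adjusted p = 0.0104) in liver. Of the Hspa8 stretches 59.1%, and of those of Hsp90aa1 41.3%, occur in other annotated genes, and of those of Ahsa1 8.22%, against none of those of Hsp90ab1, Hsph1, Dnajb1, Hspb8 and Bag3.

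Genes outside the set that followed it across libraries included further chaperones. Over the 14 livers the highest Pearson correlations with the mean z score of the 10 genes were those of P4ha1 (r = 0.926), a collagen prolyl hydroxylase, Hspb1 (0.901), a small heat shock protein, and Dnaja1 (0.891), a J-domain protein. Ttpal, Chordc1, Slc35e1, Cct2, Rprd2, Ahsa2 and Rheb followed, down to 0.831. Over the 15 hippocampi they were Slc5a3 (0.929), an inositol transporter, Dnaja4 (0.924), a J-domain protein, and Stip1 (0.92), which joins HSP70 to HSP90, followed by Chordc1, Rpn1, Map3k19, Pdia4, Fkbp4 and Zmym1, down to 0.808. Chordc1, an HSP90 cochaperone, was among the 10 in each tissue. These points share the library and its depth, and the values are descriptions. Of the set itself, Hsph1 lay closest to the mean in both tissues (0.965 and 0.907), and Hspb8 in hippocampus lay farthest from it (0.236). Each gene of the set is part of that mean, so its r cannot be set against those of genes outside it. None of the 10 liver genes passed in CC-IF against CC; Hspb1 differed by 0.60 ± 0.50 and Dnaja1 by 0.29 ± 0.20.

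Other chaperone systems were read from fixed lists, and their counts stand beside the 24% of all genes that passed in liver in CC-IF against CC. In that comparison none of the 4 genes tested of the HSF family passed: Hsf1 differed by 0.13 ± 0.11 and Hsf2 by 0.20 ± 0.11. Of 16 other cytosolic HSP70, HSP110 and J-domain genes 4 rose and 1 fell, Dnajb6 by 0.68 ± 0.11 (adjusted p = 0.00102), Hspa2 by 0.51 ± 0.13 (adjusted p = 0.0127), Dnajb4 by 0.53 ± 0.16 (adjusted p = 0.026) and Dnajb2 by -0.48 ± 0.12 (adjusted p = 0.0123). Of 22 cochaperones 3 rose and 2 fell. Fkbp5, which binds HSP90 and is itself a glucocorticoid-responsive gene, rose by 1.54 ± 0.30 (adjusted p = 0.00284), Fnip1, which slows the HSP90 ATPase, by 0.67 ± 0.19 (adjusted p = 0.0201), and Ppid fell by 0.46 on the log2 scale (adjusted p = 0.0338). None of 3 small heat shock proteins passed, and 2 of 14 chaperonin and prefoldin genes fell. Of 12 mitochondrial chaperones and proteases 2 rose and 2 fell, and of 4 partners of BAG3 in selective autophagy 1 rose and 1 fell. The medians were 0.16 for the HSF family, and -0.04, 0.03, -0.02, -0.08, 0.09 and 0.07 for the other lists in this order, beside 0.02 over all genes.

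The chaperones of the endoplasmic reticulum went the other way from Hspa1b. In CC-IF against CC liver all 14 fell, with a median of -1.88; Hspa5, the reticulum's HSP70, fell by 2.12 on the log2 scale (adjusted p = 0.000341) and Sdf2l1 by 3.96 (adjusted p = 7.29e-05). On high-fat diet 3 of the 14 fell with fasting, Calr, Pdia3 and Pdia6. Of the cold-inducible RNA-binding proteins, Rbm3 rose in liver by 1.34 ± 0.15 on chow (adjusted p = 0.000109) and by 1.10 ± 0.19 on high-fat diet (adjusted p = 0.0201), and Cirbp differed by 0.52 ± 0.23 and 0.04 ± 0.28. In hippocampus, averaged over both diets, Cirbp rose by 0.74 ± 0.10 (adjusted p = 0.0072) and Rbm3 by 0.80 ± 0.13 (adjusted p = 0.0466), beside the uncalled difference of -0.30 in Hspa8. No other gene of these lists passed in hippocampus in CC-IF against CC, HFD-IF against HFD or the average. None of 7 immediate early genes passed in liver on either diet. On high-fat diet all 7 were above 0 with fasting, with a median of 1.08, which rests on 2 HFD-IF livers. The part of HFD-IF library 1, with its high fibroblast and Kupffer cell markers, was not tested.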

How the data were processed

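Polyadenylated RNA was sequenced in 29 libraries analysed here, of 32 stated in the study's design. The deposited values are FPKM per gene computed by the authors; reads were trimmed with Trimmomatic 0.39 and aligned with TopHat2 2.1.1 and Bowtie2 2.3.5.1 to GRCm38, per the submitters' processing notes. The program that computed FPKM is not given in the sources used here. Columns name the group and an index, so libraries were tied to groups and not to numbered samples. The study calls the replicates biological.

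From these, log2(FPKM + 1) was fitted per tissue with limma 3.58.1 (R 4.3.3; intensity trend, all regimens in 1 fit) over genes with a mean FPKM of at least 1, and p-values were adjusted by Benjamini-Hochberg over all genes, with a threshold of 0.05. All 10 chaperones passed that filter in both tissues. A fit over both tissues used 9939 genes. It treated all libraries as independent, because columns could not be tied to numbered animals. Liver and hippocampus of the same mouse, if both were sequenced, were therefore not paired. Fold changes on this scale understate the change of low genes such as Hspa1a. The scripts were tested on simulated data. The members, lists and tests were chosen with earlier results of these data known. All chaperones were named, with up to 4 genes per list by smallest p and the 10 genes per tissue most correlated with the members' mean, of which 1 in hippocampus is not reported here. Comparisons that share HFD, CC or CC-IF libraries are not independent. Same-index libraries deviated together in hippocampus for CC-IF against CC (r = 0.162, 0.161 and 0.278) and CC-IF against HFD (0.116, 0.128 and 0.18). No other comparison had every r above 0.1. In liver CC-IF against CC, however, r was 0.135, 0.335 and 0.199 for index 0, 1 and 2, and 0 for index 3. Any pairing by index comes from the data and not from the labels.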

Additional observations from a re-analysis of the deposited data

Results flagged for a closer look

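The fasting change of Hspa8 on chow differed between the tissues by 0.73 on the log2 scale (liver minus hippocampus, adjusted p = 0.0471 by limma), which is listed because the difference itself passed its test; 17 of 29 fits that left out 1 library lost the call. No library stood far enough from the 3 others of its group, by Dixon's test, in 60 groups of 4 tested, where chance gives about 1 in 20.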

How the results depend on the processing

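With no filter on low values, 0 chaperones passed in liver in CC-IF against CC and in the average over both diets, and 0 in the difference between tissues of the change of CC-IF against CC. That difference also had 0 with median centring and 0 with quantile normalization, and 2 with a replicate block on the column index. Median centring gave 1 in the hippocampal average, and summing Hspa1a and Hspa1b left 1 in liver CC-IF against HFD because the pair became 1 value. The replicate block gave 0 chaperones in hippocampus in CC-IF against CC and CC-IF against HFD, where same-index libraries deviated together, and 5 in the levels on chow. Leaving out 1 library gave 0 to 2 in liver CC-IF against CC, 1 to 2 in CC-IF against HFD, 0 to 2 in the average, and 0 to 2 in each fasting change between tissues. It also turned the direction of uncalled liver values: in HFD-IF against HFD Hspa1a ranged from -0.87 to 1.86 and Hspa1b from -0.19 to 2.13, and in CC-IF against CC Hsp90aa1 ranged from -0.46 to 0.12, Hsph1 from -0.084 to 0.54, Hspb8 from -0.047 to 0.27 and Bag3 from -0.18 to 0.21. Quantile normalization put Bag3 in CC-IF against CC at -0.035 and the level differences on chow of Hspa8 at -0.76, Hsp90ab1 at -0.98 and Dnajb1 at -0.058. Apart from the library left out or the rows summed, the cause was not tested. Of the remaining single values, 466 of those under other settings and 873 of those with 1 library left out were counted as unchanged. For single genes this meant the same direction and side of the threshold. For medians over the 10 genes it meant a move smaller than the SD between replicates, whatever the direction. The liver median of HFD-IF against HFD, -0.15 as reported, was 0.030 with the replicate block. It ranged from -0.44 to 0.17 with 1 library left out. Fitting only the 2 groups compared was not run for the interaction, the average or the fit over both tissues. Liver libraries of about 9.9 to 16.7 M fragments, and 2 HFD-IF livers, may limit what could be detected for Hspa1a, which was not tested.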
